A study of Mus musculus with 6 samples.

Results

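The small leucine-rich proteoglycans are secreted proteins of the extracellular matrix that sit on collagen fibrils. The 8 genes described here, *Dcn*, *Bgn*, *Lum*, *Fmod*, *Ogn*, *Prelp*, *Omd* and *Aspn*, were chosen by name as members of this family, 8 of the 46078 genes in the count tables. They were compared between chronic stroke infarcts and the matching cortex of the opposite hemisphere. The mice were C57BL/6J wild type males, labelled as 3 months old, with stroke from occlusion of the distal middle cerebral artery followed by hypoxia (the DH model). Tissue was dissected 7 weeks after stroke from 3 infarcts and 3 contralateral cortices, each of which gave 1 stranded mRNA library. The question addressed is how transcripts of this matrix family differ between an infarct at a chronic stage and uninjured cortex. Both regions came from mice that had a stroke, and cortex from mice without stroke was not analysed here. The labels number the libraries within a region and do not say which of them came from the same mouse, so *p* values measure the spread between these samples.

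Each protein of the family folds as a curved stack of leucine-rich repeats, which binds collagen and governs how fibrils grow in width and how they are spaced. Many members carry sulfated sugar chains, chondroitin or dermatan sulfate on decorin and biglycan and keratan sulfate on lumican and fibromodulin, and several also bind growth factors and innate immune receptors. In the brain they are best known from the meninges and the perivascular space, where fibroblasts make them, and from the collagen-rich scar that forms after injury.

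The libraries of infarcts 1, 2 and 3 held 12146959, 12507336 and 13427057 counts on genes, and those of contralateral cortices 1, 2 and 3 held 19933962, 16610299 and 11943570. Levels are given as CPM, which are counts scaled to library size, here with the TMM method of edgeR, with the mean ± SD of 3 libraries. A gene was called upregulated or downregulated when edgeR's quasi-likelihood test gave an adjusted *p* under 0.05 and the fold change exceeded 2, among 15554 genes that passed the filter on low counts. By this rule 25.7% of the tested genes were upregulated and 20.9% downregulated. All 8 proteoglycan genes passed the filter, and 8 of 8 were upregulated in infarcts. Their median log2 fold change was 2.67, compared with 0.03 over all tested genes. In each of the 8 genes the lowest infarct library lay above the highest contralateral library. Libraries of the regions were also free of overlap for 72.3% of all tested genes, so this separation is common in these data. In tissue RNA, more cells that make a transcript and more RNA per cell cannot be told apart.

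Markers of the tissue followed the labels. *Syt1*, a synaptic vesicle protein of neurons, was at 3915 ± 265 CPM in contralateral cortices and 404 ± 224 CPM in infarcts, and 12 of 12 tested cortical neuron markers were downregulated. The infarct libraries still held neuronal transcripts. The summed CPM of the 12 markers was 512, 703 and 1283 in infarcts 1, 2 and 3, against 7624, 8075 and 8828 in contralateral cortices 1, 2 and 3. Infarct 3 was thus the library with the most neuronal RNA among the infarcts.

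Decorin, biglycan and asporin form the group of members closest to each other in sequence, and the first of them are the classic carriers of chondroitin and dermatan sulfate. *Dcn* (ENSMUSG00000019929, chr10:97479609-97518143 on GRCm38, plus strand) encodes decorin, which coats fibrils and binds transforming growth factor beta. It was measured at 1492, 1266 and 928 CPM in infarcts 1, 2 and 3 and at 12.5, 11.7 and 18.7 CPM in contralateral cortices 1, 2 and 3. Every infarct was far above every contralateral library, with infarct 3 the lowest of the infarcts. The log2 fold change was 6.43 (SE 0.30, edgeR adjusted *p* = 2.29e-07). Ordered by fold change among the tested genes, *Dcn* stood at place 329.

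*Bgn* (ENSMUSG00000031375, chrX:73483602-73495933, plus strand) encodes biglycan, which binds fibrils and, as a soluble protein, Toll-like receptors. Its levels were 1418, 943 and 1144 CPM in infarcts 1, 2 and 3 and 37.4, 34.4 and 48.4 CPM in contralateral cortices 1, 2 and 3. The regions did not overlap, and infarct 2 was the lowest of the infarcts. The log2 fold change was 4.87 (SE 0.24, edgeR adjusted *p* = 2.93e-07). *Aspn* (ENSMUSG00000021388, chr13:49544443-49567565, plus strand) encodes asporin, a relative that lacks the sugar chain and has a run of aspartate residues. *Aspn* was at 13.6, 10.8 and 9.35 CPM in infarcts 1, 2 and 3 and at 2.56, 3.39 and 3.69 CPM in contralateral cortices 1, 2 and 3. The regions were separate by less than in the other genes, and asporin had the smallest fold change of the 8, a log2 value of 1.82 (SE 0.25, edgeR adjusted *p* = 1.41e-04). Fitted values under the alternative settings ran from 1.66 to 2.02 for this gene, above the log2 threshold of 1 throughout.

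Lumican, fibromodulin, PRELP and osteomodulin form a group whose members can carry keratan sulfate or sulfated tyrosines. *Lum* (ENSMUSG00000036446, chr10:97565128-97572703, plus strand) encodes lumican, which keeps fibrils thin and evenly spaced, as in the cornea. *Lum* was at 468, 487 and 329 CPM in infarcts 1, 2 and 3 and at 2.82, 2.15 and 3.32 CPM in contralateral cortices 1, 2 and 3, which were 54, 33 and 36 counts. The regions did not overlap, and infarct 3 was the lowest of the infarcts, as for *Dcn*. *Lum* had the largest fold change of the 8 genes, a log2 value of 7.28 (SE 0.26, edgeR adjusted *p* = 1.64e-07), and stood at place 233 among the tested genes.

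*Fmod* (ENSMUSG00000041559, chr1:134037254-134048277, plus strand) encodes fibromodulin, which shares its collagen site with lumican and guides the crosslinking of fibrils. Levels of *Fmod* were 97.0, 64.8 and 112 CPM in infarcts 1, 2 and 3 and 19.3, 11.98 and 18.4 CPM in contralateral cortices 1, 2 and 3. Infarct 2 was the lowest infarct and still above every contralateral library. The log2 fold change was 2.46 (SE 0.26, edgeR adjusted *p* = 2.75e-05). *Prelp* (ENSMUSG00000041577, chr1:133910304-133921414, minus strand) encodes a protein with a basic tail that binds heparan sulfate and links basement membranes to collagen. *Prelp* was at 158, 107 and 171 CPM in infarcts 1, 2 and 3 and at 28.8, 23.0 and 23.1 CPM in contralateral cortices 1, 2 and 3. *Prelp* ranked its infarcts as *Fmod* did, with infarct 3 the highest and infarct 2 the lowest, and had a log2 fold change of 2.54 (SE 0.20, edgeR adjusted *p* = 4.40e-06).

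*Omd* (ENSMUSG00000048368, chr13:49582462-49592822, plus strand) encodes osteomodulin, a protein rich in sulfated tyrosines that is best known from bone. *Omd* was at 33.9, 12.997 and 18.3 CPM in infarcts 1, 2 and 3 and at 3.97, 3.19 and 3.32 CPM in contralateral cortices 1, 2 and 3. Infarct 1 stood above the other infarcts, and the regions did not overlap. The log2 fold change was 2.62 (SE 0.35, edgeR adjusted *p* = 1.68e-04).

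*Ogn* (ENSMUSG00000021390, chr13:49608046-49624501, plus strand) encodes osteoglycin, also named mimecan, a member of a separate branch of the family found in vessel walls, meninges and bone. Its levels were 267, 104 and 158 CPM in infarcts 1, 2 and 3 and 27.3, 22.4 and 30.8 CPM in contralateral cortices 1, 2 and 3. As with *Omd*, infarct 1 was the highest and infarct 2 the lowest. The log2 fold change of *Ogn* was 2.72 (SE 0.34, edgeR adjusted *p* = 2.03e-04). The infarcts differed among themselves most in this pair of genes, with a coefficient of variation of 49.9% for *Omd* and 47.2% for *Ogn*, against 19.3% to 26.3% for the other 6 genes. In contralateral cortices it was 11.9% for *Omd* and 15.8% for *Ogn*. Without infarct 1 the log2 fold changes were 2.17 for *Omd* and 2.31 for *Ogn*, and both were still called.

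**Figure D1:**
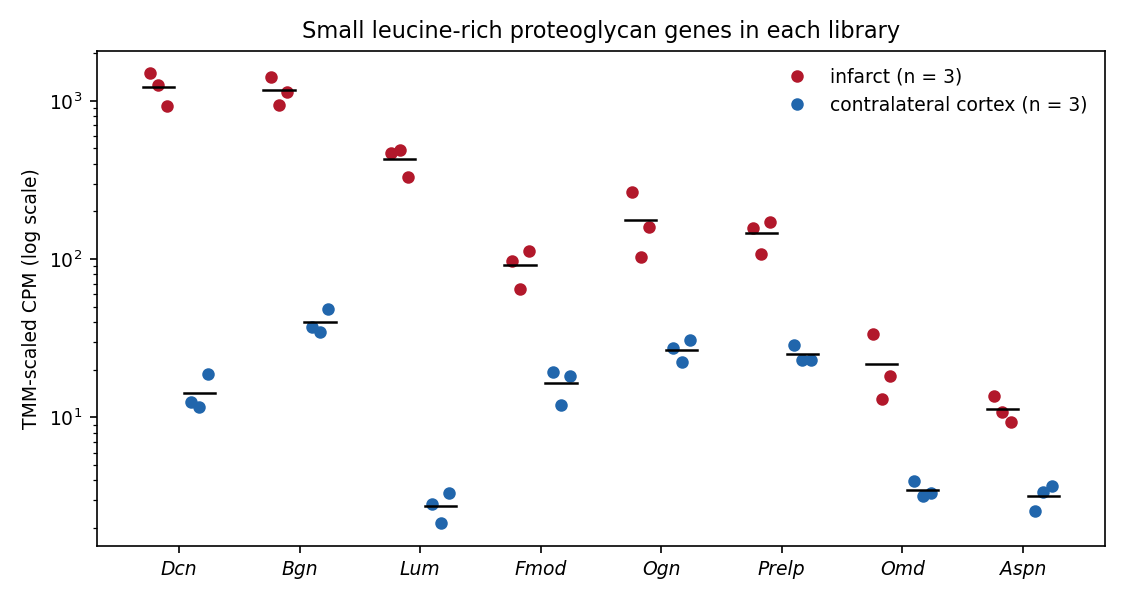
TMM-scaled CPM of the 8 proteoglycan genes on a log axis, with 1 point per library, infarcts in red (n = 3), contralateral cortices in blue (n = 3) and a black bar at the mean of each region. All infarct points lie above all contralateral points in each gene, with the widest gap in *Lum* and the narrowest in *Aspn*.

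Fold changes thus fell into a high group of *Lum*, *Dcn* and *Bgn* and a lower group of *Ogn*, *Omd*, *Prelp*, *Fmod* and *Aspn*. *Ogn*, *Omd*, *Prelp* and *Fmod*, had log2 fold changes close to each other, from 2.46 to 2.72. The make-up of the family's transcripts therefore differed between the regions. To compare genes, CPM was divided by the length of the union of a gene's annotated exons, and each gene was given as its share of the summed CPM per kb of the 8 genes. The summed level was 728 ± 130 CPM per kb in infarcts and 35.4 ± 4.82 CPM per kb in contralateral cortices, a ratio of 20.5. By library it was 877, 671 and 636 CPM per kb in infarcts 1, 2 and 3 and 36.7, 30.1 and 39.5 CPM per kb in contralateral cortices 1, 2 and 3.

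In contralateral cortices *Ogn* led by this measure, with 29.4% ± 0.843 of the summed CPM per kb. *Prelp* followed with 19.7% ± 3.06, *Bgn* with 18.5% ± 1.71 and *Fmod* with 14.0% ± 1.94 of the sum. The shares of *Prelp* and *Bgn* did not differ beyond their spread. *Dcn* held 6.87% ± 1.16, *Omd* 4.42% ± 0.590, *Aspn* 3.90% ± 0.911 and *Lum* 3.16% ± 0.262 of the sum, and the last 3 shares lay close together. In infarcts the order was another. *Dcn* held 28.8% ± 3.68 of the summed CPM per kb, *Bgn* 26.4% ± 3.22 and *Lum* 24.2% ± 4.76, and these 3 shares did not differ beyond their spread. *Ogn* held 9.20% ± 2.96, *Prelp* 5.62% ± 1.60, *Fmod* 3.86% ± 1.28, *Omd* 1.29% ± 0.427 and *Aspn* 0.656% ± 0.0298 of the sum in infarcts.

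The share of *Bgn* depended on the length used, since its annotated exons span 6099 bases and its longest transcript 2666. With the longest transcript as length, an alternative chosen after the values were seen, *Bgn* held 42.6% ± 4.22 of the sum in infarcts and 33.5% ± 2.46 in contralateral cortices, and led the family in both regions. *Dcn* then held 25.5% ± 3.84 in infarcts and 6.75% ± 1.01 in contralateral cortices, and *Lum* 17.2% ± 3.78 and 2.502% ± 0.185. Which of *Bgn* and *Dcn* was the more abundant transcript per length in infarcts therefore cannot be told from gene counts. Under either length the shares of *Dcn*, *Bgn* and *Lum* were larger in every infarct than in any contralateral library, and those of *Ogn*, *Prelp*, *Fmod*, *Omd* and *Aspn* were smaller. These shares and the ratios that follow were not tested. An exact permutation test of 3 against 3 libraries cannot give a *p* under 0.1, and no other test was run on them.

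**Figure D2:**
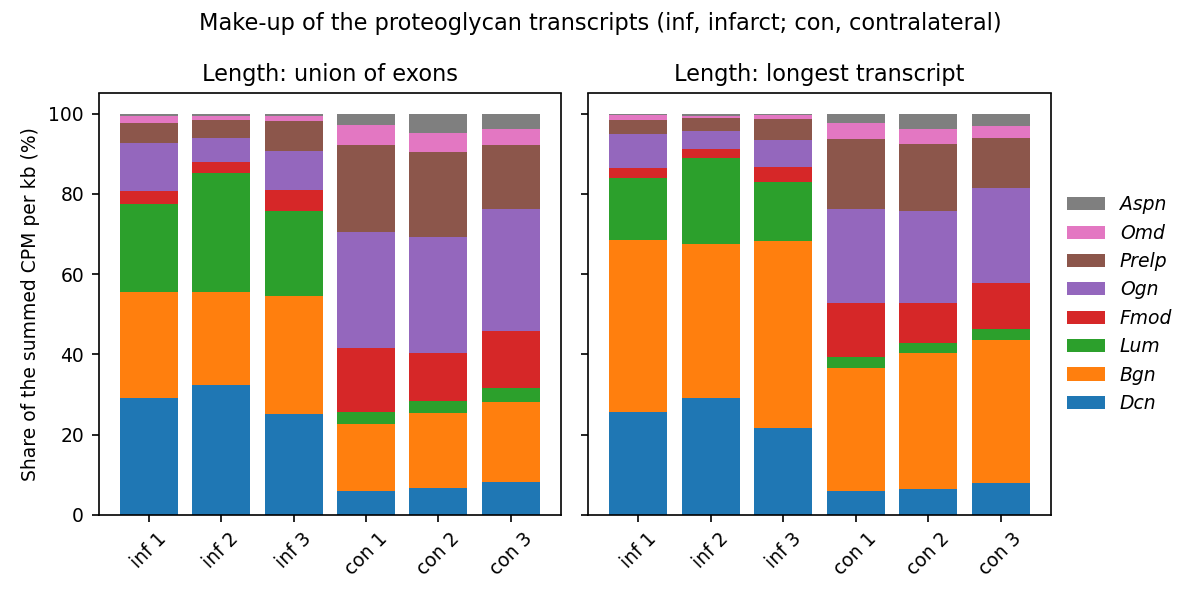
Share of each of the 8 genes in their summed CPM per kb, in percent, with 1 bar per library (inf, infarct; con, contralateral cortex), for length as the union of exons (left) and as the longest transcript (right). *Dcn*, *Bgn* and *Lum* take larger shares in infarcts than in contralateral cortices in both panels, and *Ogn* takes 29.4% of the contralateral sum on the left and 23.3% on the right.

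Ratios of counts between a pair of genes within a library need no scaling factor, and can be read between libraries though not as a comparison of levels between the genes. The count ratio of *Ogn* to *Dcn* was 0.144 ± 0.0539 in infarcts and 1.91 ± 0.265 in contralateral cortices, and that of *Bgn* to *Dcn* was 0.976 ± 0.245 and 2.84 ± 0.224. The ratio of *Lum* to *Dcn* was higher in infarcts, at 0.351 ± 0.0358 against 0.196 ± 0.0257. The count ratio of *Omd* to *Ogn* was 0.122 ± 0.00617 in infarcts and 0.132 ± 0.0210 in contralateral cortices, and that of *Fmod* to *Prelp* was 0.623 ± 0.0262 and 0.662 ± 0.138, each within the spread between libraries. *Aspn* to *Ogn* was 0.0714 ± 0.0286 in infarcts and 0.122 ± 0.0287 in contralateral cortices, with overlap between the regions. Against the type I collagen gene *Col1a1*, *Dcn* was at 1.01 ± 0.258 in infarcts and 1.27 ± 0.233 in contralateral cortices, and *Lum* was at 0.349 ± 0.0760 and 0.248 ± 0.0418. Against *Col1a2*, *Dcn* was at 0.620 ± 0.105 and 0.640 ± 0.0845. The ratio of *Bgn* to *Col1a1* was 0.954 ± 0.217 in infarcts and 3.63 ± 0.834 in contralateral cortices.

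The 8 genes together took 0.408%, 0.326% and 0.313% of the gene counts of infarcts 1, 2 and 3. The 95% Wilson intervals were 0.404% to 0.412% for infarct 1, 0.323% to 0.329% for infarct 2 and 0.310% to 0.316% for infarct 3, and cover counting error only. In contralateral cortices 1, 2 and 3 the shares were 0.0129%, 0.0104% and 0.0136%, with intervals of 0.0124% to 0.0134%, 0.00990% to 0.0109% and 0.0129% to 0.0143%. Infarct 1 was the highest, and every infarct lay above every contralateral library.

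The genes lie in clusters, except *Bgn*, which stands apart on the X chromosome. *Dcn* and *Lum* are neighbours on chromosome 10 beside *Kera* and *Epyc*, *Prelp* and *Fmod* lie on chromosome 1 beside *Optc*, and *Aspn*, *Omd* and *Ogn* follow *Ecm2* on chromosome 13. By cluster the log2 fold changes were 6.43 and 7.28 for *Dcn* and *Lum*, 2.54 and 2.46 for *Prelp* and *Fmod*, and 1.82, 2.62 and 2.72 for *Aspn*, *Omd* and *Ogn*, and their likeness was not tested. In the chromosome 10 cluster *Epyc*, downstream of *Lum*, had a log2 fold change of 2.42 (SE 0.22), and *Kera*, between them, had 0 counts in all 6 libraries. Among genes outside the family that lie within 100 kb of one of the 8, 22 in all, 7 were tested, of which edgeR called 0 upregulated and 2 downregulated, beside 25.7% and 20.9% of all tested genes. The 15 that were not tested had at most 7 counts in any library. Next to *Bgn*, *Atp2b3*, a calcium pump of neurons, and *Zfp92*, a zinc finger gene, were downregulated in infarcts, with log2 fold changes of -2.76 (SE 0.58, edgeR adjusted *p* = 5.02e-03) and -3.82 (SE 0.54, edgeR adjusted *p* = 1.72e-04). *Haus7*, *Btg2*, *Cenpp*, *Nol8* and *Iars* were tested and not called, with log2 fold changes from -0.27 to 0.96.

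Some of these genes share positions with others. *Aspn*, *Omd*, *Ogn* and *Ecm2* lie inside the gene *Cenpp*, which runs on the other strand and held 2 to 15 counts per library. Of the exon bases of *Prelp* 9.68% also lie in exons of the other strand, as do 0.297% for *Aspn* and 40.6% for *Epyc*. Among other list genes named here with more than 10%, the figure was 74.0% for *Tnnc2*, 20.6% for *Tbx18*, 19.5% for *Chadl*, 15.5% for *Ckm*, 15.1% for *Csf1r* and 12.6% for *B3gnt7*. *Chad* lies inside *Acsf2*, *Gfap* lies inside Gm26668, and *Dpep1* and *Acta1* lie inside the annotated span of Gm20388. The strand setting of the counting is not given in the sources used here, so reads from such overlaps cannot be assigned with certainty. Transcripts of 18 family genes were compared for shared bases, in 153 pairs. The longest run of identical bases was 50, between *Bgn* and *Podn*, and it was 40 between *Bgn* and *Dcn*.

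**Figure D3:**
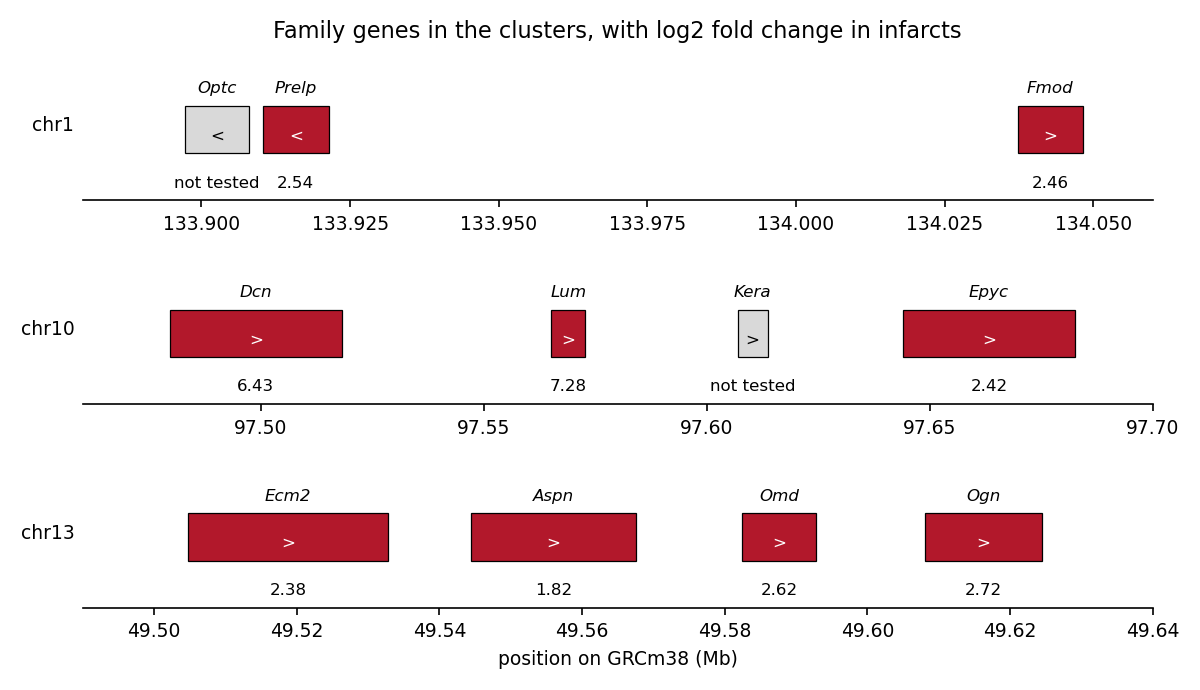
Family genes in their clusters on chromosomes 1, 10 and 13, drawn to scale in Mb of GRCm38, with arrowheads for the strand, red for upregulated and grey for not tested, and the log2 fold change in infarcts under each gene. *Dcn* and *Lum* carry values of 6.43 and 7.28, and all tested genes of the other clusters lie between 1.82 and 2.72.

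Since most of the genes lie in clusters, the bases before their starts were compared, as read from the RefSeq promoter table (GRCm38.p6), in which 6 of the 8 genes matched. *Dcn* and *Lum* had no entry. In the 250 bases before the start, GC content was 64.4% for *Bgn*, 55.6% for *Prelp*, 51.2% for *Fmod*, 42.0% for *Ogn*, 38.4% for *Omd* and 30.0% for *Aspn*, against a median of 52.4% over 32851 promoters. The motifs TATAAA (the TATA box), GGGCGG (the GC box), TGANTCA (the site of AP-1 factors) and CAGAC (a site of SMAD factors) were searched on both strands. They occur in 12.4%, 32.7%, 6.75% and 42.2% of all promoters, respectively. *Bgn* had 3 matches of GGGCGG, *Ogn* and *Aspn* had 2 of TATAAA each, *Fmod* had 2 of CAGAC and *Prelp* 1. The TATAAA match nearest the RefSeq start began 227 bases before it in *Ogn* and 178 bases before it in *Aspn*. *Omd* had none of the 4 motifs, and TGANTCA was found in none of the 6. The genes at both ends of the range in GC content and *Ogn*, which had the largest contralateral share per kb of exons, are shown 5′ to 3′ on the plus strand, with matched bases in capitals. The windows are chrX:73483351-73483600 for *Bgn*, chr13:49544193-49544442 for *Aspn* and chr13:49607765-49608014 for *Ogn*.
Bgn: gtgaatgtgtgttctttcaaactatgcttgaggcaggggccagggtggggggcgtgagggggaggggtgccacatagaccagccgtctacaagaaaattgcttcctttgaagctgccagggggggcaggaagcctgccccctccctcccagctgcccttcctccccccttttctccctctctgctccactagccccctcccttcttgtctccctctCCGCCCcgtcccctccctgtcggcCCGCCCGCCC
Aspn: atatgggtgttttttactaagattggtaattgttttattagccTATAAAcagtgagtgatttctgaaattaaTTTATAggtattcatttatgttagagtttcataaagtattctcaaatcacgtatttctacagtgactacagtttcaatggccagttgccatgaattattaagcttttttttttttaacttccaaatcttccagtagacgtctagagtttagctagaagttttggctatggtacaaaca
Ogn: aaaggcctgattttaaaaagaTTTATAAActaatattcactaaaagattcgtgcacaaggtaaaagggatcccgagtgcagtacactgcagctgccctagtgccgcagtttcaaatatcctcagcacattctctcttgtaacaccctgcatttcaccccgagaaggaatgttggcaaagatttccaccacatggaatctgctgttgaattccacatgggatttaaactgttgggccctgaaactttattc
In *Bgn* the capitals are GGGCGG on the other strand, where the last 2 matches overlap, and in *Aspn* and *Ogn* they are TATAAA on either strand, which overlap in *Ogn*. The windows end just before the RefSeq start, which differs from the GENCODE start in *Ogn*, *Bgn* and *Prelp*. A match describes letters only, and binding of a factor was not measured.

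The rest of the family holds 10 genes in mouse, of which 8 were tested and 6 were upregulated, with a median log2 fold change of 2.40 over the tested genes. *Tsku*, which encodes the signalling modulator tsukushi, was at 24.9, 38.8 and 24.8 CPM in infarcts 1, 2 and 3 and at 2.61, 2.60 and 2.68 CPM in contralateral cortices 1, 2 and 3, with infarct 2 the highest. The log2 fold change was 3.49 (SE 0.24, edgeR adjusted *p* = 1.64e-06). *Ecm2*, which stands at the head of the chromosome 13 cluster, rose by a log2 value of 2.38 (SE 0.20, edgeR adjusted *p* = 6.35e-06). *Podn*, a matrix protein of vessel walls, rose by 1.64 (SE 0.27, edgeR adjusted *p* = 4.68e-04). *Chad*, which encodes the cartilage protein chondroadherin, had 105, 100 and 88 counts in the infarct libraries against 0, 3 and 1 in the contralateral libraries. From the summed counts the ratio was 81.3, with a 95% exact interval of 31.4 to 301 for counting error. *Podnl1* had 34, 59 and 43 counts in the infarct libraries and 0 in each contralateral library, which makes it at least 15.9-fold higher when each of those libraries is set to 3 counts. Both genes were among the 6 called. *Chadl* and *Nyx* were tested and not called, with log2 fold changes of -0.67 (SE 0.34) and -0.15 (SE 0.48). *Optc* had at most 4 counts in a library and was not tested.

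The partners of the family are the fibril-forming collagens. Of 11 such genes 10 were tested, 9 were upregulated and 1 was downregulated, with a median log2 fold change of 3.42. *Col3a1* went from 16.3 ± 3.56 CPM in contralateral cortices to 2652 ± 668 CPM in infarcts, and its log2 fold change was 7.35 (SE 0.30, edgeR adjusted *p* = 1.64e-07). *Col1a1* and *Col1a2*, the chains of type I collagen, had log2 fold changes of 6.73 (SE 0.31) and 6.45 (SE 0.27), and *Col5a2*, a chain that starts fibrils, had 5.96 (SE 0.23). *Col24a1* went the other way, with 166, 83 and 23 counts in the contralateral libraries against 3, 20 and 15 in the infarct libraries, and a log2 fold change of -2.56 (SE 0.64, edgeR adjusted *p* = 7.03e-03).

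Other proteins on or beside fibrils rose as a list, with 15 of 15 tested genes of 16 upregulated and a median log2 fold change of 4.35. The largest were *Col14a1*, which like decorin sits on the fibril surface, at 6.46 (SE 0.33), *Col6a3* at 5.57 (SE 0.19), *Fbln1* at 5.34 (SE 0.26) and *Col6a2* at 4.75 (SE 0.20). Among genes for the modification and crosslinking of collagen, 13 of 14 tested were upregulated, with a median of 3.35. *Lox*, the enzyme that crosslinks collagen, had a log2 fold change of 6.19 (SE 0.26), its relatives *Loxl1* and *Loxl2* had 5.07 (SE 0.30) and 4.76 (SE 0.31), and the collagen chaperone *Serpinh1* had 4.40 (SE 0.25). *P4ha2* was not called, with a log2 fold change of 0.30 (SE 0.29).

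The enzymes that build the sugar chains were read as lists of their own. Of 20 tested genes for chondroitin and dermatan sulfate, 8 were upregulated, 3 were downregulated and 9 were not called, with a median log2 fold change of 0.73. The share upregulated, 8 of 20, stands beside 25.7% of all tested genes. *Dse*, the epimerase that turns chondroitin into dermatan sulfate, had 151, 139 and 80 counts in contralateral cortices 1, 2 and 3, against 1917, 2035 and 1425 in infarcts 1, 2 and 3. The counts did not overlap, and the log2 fold change was 4.03 (SE 0.22, edgeR adjusted *p* = 4.34e-07). *Chst14*, the sulfotransferase of dermatan sulfate, had a log2 fold change of 3.65 (SE 0.50, edgeR adjusted *p* = 1.63e-04), with 137, 114 and 117 counts in the infarct libraries against 22, 2 and 9 in the contralateral libraries. The chondroitin sulfotransferase *Chst3* had 2.82 (SE 0.31).

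Genes for the same step of chain synthesis differed in direction. *B3gat3*, which completes the linker between protein and chain, fell by 1.53 on the log2 scale (SE 0.24), and *Chsy3*, a chondroitin polymerase, fell by 2.48 (SE 0.34). *Csgalnact1*, which starts the chondroitin chain, fell by 1.11 (SE 0.20, edgeR adjusted *p* = 7.63e-04), close to the threshold. Without infarct 1 its log2 fold change was -0.93 and it was not called. *Chsy1* and *Csgalnact2*, the relatives of *Chsy3* and *Csgalnact1*, were upregulated, with log2 fold changes of 2.21 (SE 0.26) and 1.40 (SE 0.16). Of the other linker genes, *Xylt1*, *Xylt2*, *B4galt7*, *B3galt6* and *Fam20b* were all tested and not called, with log2 fold changes from -0.95 to 0.88.

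For keratan sulfate and tyrosine sulfation, the modifications of lumican, fibromodulin and osteomodulin, 2 of 8 tested genes were upregulated, 1 was downregulated and 5 were not called, with a median log2 fold change of 0.57. The share upregulated, 2 of 8, is close to the 25.7% of all tested genes. *B4galt1*, a galactosyltransferase with many substrates, had 4.06 (SE 0.20), and *B3gnt7*, which extends keratan sulfate, had 3.08 (SE 0.33). *Chst1*, the sulfotransferase of keratan sulfate, went from 204 ± 14.7 CPM in contralateral cortices to 45.8 ± 24.1 CPM in infarcts and fell by 2.16 on the log2 scale (SE 0.33, edgeR adjusted *p* = 6.16e-04). Its infarct counts were 390, 447 and 1078, highest in infarct 3, the infarct with the most neuronal RNA. The part of neuronal RNA in the values of *Chst1* was not tested. *Tpst1* and *Tpst2*, the tyrosine sulfotransferases, were not called, with log2 fold changes of 0.76 (SE 0.17) and 0.43 (SE 0.20).

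Proteases and enhancers known to cut or mature the family were measured as another list, in which 10 of 11 tested genes were upregulated, with a median log2 fold change of 3.58. *Mmp13*, a collagenase that also cuts fibromodulin, had 0, 12 and 11 counts in contralateral cortices 1, 2 and 3, against 6088, 14398 and 16310 in infarcts 1, 2 and 3. *Mmp3*, which cuts decorin, had 0, 1 and 11 counts in contralateral cortices 1, 2 and 3, against 7476, 5614 and 4757 in infarcts 1, 2 and 3. Infarct 1 was the highest for *Mmp3* and the lowest for *Mmp13*. Their log2 fold changes were 10.60 (SE 0.83, edgeR adjusted *p* = 3.62e-05) for *Mmp3* and 10.68 (SE 0.85, edgeR adjusted *p* = 3.92e-05) for *Mmp13*, and rest on few contralateral counts. *Mmp2* and the membrane-bound *Mmp14* had 5.98 (SE 0.18) and 4.63 (SE 0.32). *Pcolce2*, an enhancer of collagen maturation, was tested and not called, with -0.68 (SE 0.29).

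Receptors and ligands that bind members of the family rose in 20 of 25 tested genes, fell in 1 and were not called in 4, with a median log2 fold change of 2.94. *Tlr2*, a receptor of soluble biglycan, had a log2 fold change of 5.08 (SE 0.29), its coreceptor *Cd14* had 4.73 (SE 0.28), the matrix receptor *Cd44* had 5.49 (SE 0.19), and *C1qb*, a chain of the complement protein that several members bind, had 4.77 (SE 0.21). *Erbb4*, a receptor of decorin that neurons express, went from 343 ± 23.1 CPM in contralateral cortices to 55.4 ± 11.6 CPM in infarcts and fell by 2.63 on the log2 scale (SE 0.18, edgeR adjusted *p* = 1.72e-06). *Met*, *Igf1r*, *Ccn4* and *Bmp2* were not called, with log2 fold changes from -0.82 to 0.41.

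**Figure D4:**
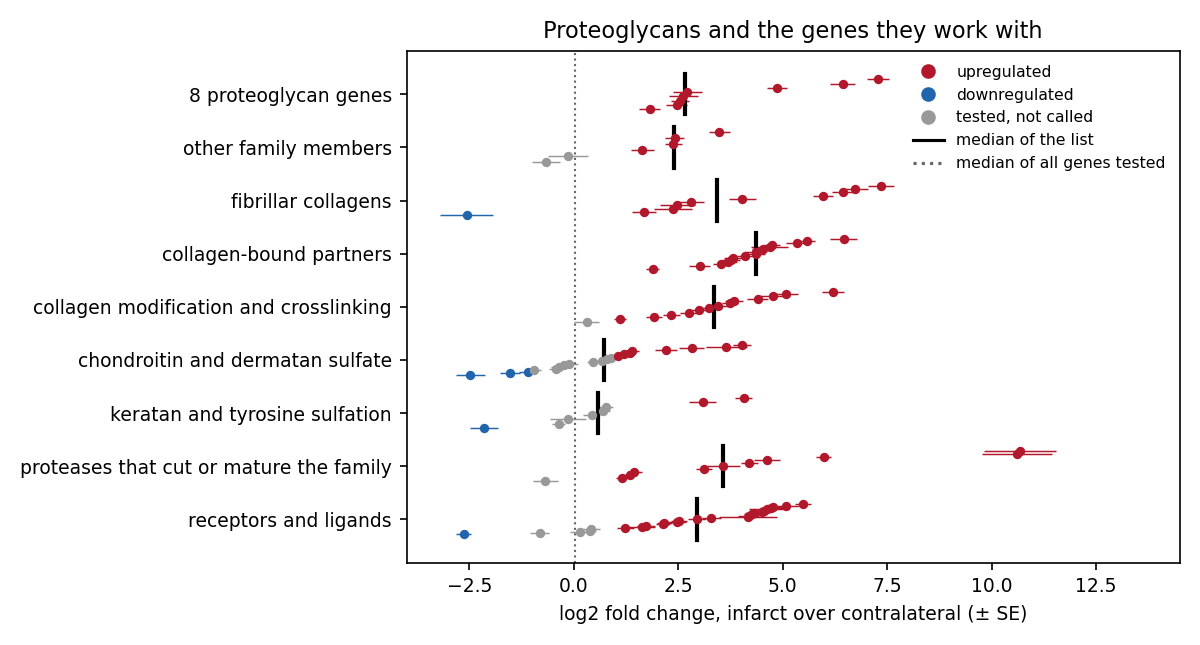
Log2 fold change (infarct over contralateral cortex, ± SE) of each tested gene of the 9 gene lists, with 1 point per gene, red for upregulated, blue for downregulated and grey for not called, a black bar at the median of each list and a dotted line at the median of all tested genes (0.03). *Chad* and *Podnl1*, which had few or no contralateral counts, are left out, and the sugar chain lists lie lowest, with medians of 0.73 and 0.57.

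Markers of cell types known to make these transcripts were read beside them. Of 17 tested fibroblast and leptomeningeal markers 17 were upregulated, with a median log2 fold change of 3.49, or 3.42 with *Dpep1* at its bound. Their summed CPM was 1504, 1439 and 1162 in infarcts 1, 2 and 3, against 219, 176 and 190 in contralateral cortices 1, 2 and 3, lowest among infarcts in infarct 3, as for *Dcn* and *Lum*. The most abundant of them in every library was *Pdgfra*, which precursors of oligodendrocytes also express, and *Dpep1* was at 0 in all contralateral libraries. Of the arachnoid and dural markers 7 of 7 tested were upregulated. Their summed CPM was 1150, 1372 and 1069 in infarcts 1, 2 and 3, against 244, 248 and 266 in contralateral cortices 1, 2 and 3, led by *Slc16a1*, and *Krt8* was at 0 in contralateral cortices. Of pericyte and smooth muscle markers 8 of 11 were upregulated, with a median log2 fold change of 1.34. The 3 not called had log2 fold changes from 0.23 to 0.53. The list summed to 1473, 1117 and 1045 CPM in infarcts 1, 2 and 3. In contralateral cortices 1, 2 and 3 it summed to 303, 276 and 336 CPM. *Anpep* led in infarcts 1, 2 and 3, at 661, 513 and 469 CPM, and *Rgs5* led in contralateral cortices. The part of each of these cell types in the proteoglycan levels was not tested.

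Several of the 8 genes are also known from bone and cartilage, so markers of these tissues were read too. Of 7 tested bone and cartilage markers 5 were upregulated and 1, *Dmp1*, was downregulated. The summed CPM of the list was 177, 223 and 199 in infarcts 1, 2 and 3, against 91.4, 76.9 and 93.9 in contralateral cortices 1, 2 and 3, led by *Sox9*, which astrocytes also express. The upregulated genes of the list were *Alpl* at a log2 fold change of 2.46 (SE 0.21), *Phex* at 2.38 (SE 0.36), *Runx2* at 2.03 (SE 0.24), *Sp7* at 1.85 (SE 0.42) and *Acan* at 1.61 (SE 0.22). Others had few counts. In the infarct libraries *Bglap* had 0, 0 and 3 counts, *Bglap2* had 0, 1 and 0, and *Ibsp* had 10, 9 and 12, all with 0 counts in contralateral cortices, while *Sost* and *Matn1* had 0 counts in every infarct. Skeletal muscle markers had sums of 3.03, 3.16 and 2.39 CPM in infarcts 1, 2 and 3 and 13.3, 11.5 and 15.0 CPM in contralateral cortices 1, 2 and 3. The difference was mostly that of *Acta1*, at 0.529 ± 0.258 CPM in infarcts against 10.4 ± 1.17 CPM in contralateral cortices. *Mylpf*, with 7, 5 and 8 counts in the infarct libraries against 0, 1 and 0, and *Tnnt3*, with 1, 14 and 7 against 2, 0 and 1, were not tested. The leading gene was *Acta1* in contralateral cortices, *Actn3* in infarct 1 and *Tnnt3* in infarct 2, and *Acta1* and *Actn3* had 9 counts each in infarct 3. *Ckm* and *Myh2* were at 0 in infarcts, *Tnnc2* was at 0 in contralateral cortices, and of 2 tested genes 0 were upregulated and *Acta1* was downregulated by edgeR.

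Choroid plexus markers summed to 55.0, 44.8 and 47.7 CPM in infarcts 1, 2 and 3 and 7.42, 8.01 and 8.12 CPM in contralateral cortices 1, 2 and 3. They were led by *Aqp1* in infarcts and *Kl* in contralateral cortices, 3 of 5 tested were upregulated, and the defining markers *Ttr* and *Otx2* had at most 3 counts in an infarct and 0 in contralateral cortices. Endothelial markers were upregulated in 5 of 10, with a median log2 fold change of 0.87 and sums of 682, 537 and 495 CPM in infarcts 1, 2 and 3 and 372, 422 and 383 CPM in contralateral cortices 1, 2 and 3. Their leading gene was *Cdh5* in infarcts 1 and 2, *Flt1* in contralateral cortex 3 and *Slco1a4* in the other libraries. Macrophage and microglial markers were upregulated in 9 of 10, with sums of 9816, 8423 and 6229 CPM in infarcts 1, 2 and 3 and 336, 287 and 377 CPM in contralateral cortices 1, 2 and 3, led by *Lyz2* in infarcts and *Csf1r* in contralateral cortices. The sums of the macrophage, fibroblast, pericyte and endothelial lists all ranked the infarcts 1, 2 and 3 from highest to lowest, as did *Dcn* and *Aspn*. The other proteoglycan genes and the sums of the other marker lists ranked them otherwise. The order of the fibroblast sum rested on *Pdgfra*, at 497, 355 and 298 CPM in infarcts 1, 2 and 3. Without *Pdgfra* that sum was highest in infarct 2. Of 9 astrocyte markers 3 were upregulated and 1, *Slc1a2*, was downregulated. *Slc1a2* was also the most abundant and went from 12297 ± 624 CPM in contralateral cortices to 2933 ± 859 CPM in infarcts, while *Vim*, *Gfap* and *Aqp4* rose, with log2 fold changes of 5.29, 4.81 and 1.68. The list summed to 6073, 6342 and 8558 CPM in infarcts 1, 2 and 3. In contralateral cortices 1, 2 and 3 it summed to 13377, 14188 and 13207 CPM. The lower sum in infarcts was that of *Slc1a2*. Without *Slc1a2* the other 8 markers summed higher in every infarct than in any contralateral library. That sum was mostly *Vim*, *Gfap* and *Aqp4* in infarcts, and the 5 markers not called had log2 fold changes from -0.49 to 0.81. The part of these cell types in the proteoglycan levels was not tested either.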

How the data were processed

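RNA was measured in 3 infarcts and 3 contralateral cortices, with 1 library per tissue sample. Per the submitters' processing notes, the authors made the deposited counts from paired reads, which were demultiplexed with bcl2fastq 2.19, trimmed with Trimmomatic 0.32, aligned to GRCm38 with STAR 2.5.2b and counted per Ensembl gene with HTSeq, whose version, annotation and strand setting are not given in the sources used here. The counts are not normalized. On genes fell 71.8% to 73.4% of the reads tallied in infarct libraries and 65.7% to 68.0% in contralateral libraries. Reads that HTSeq assigned to no feature made up 8.67% to 11.0% in infarct libraries and 11.4% to 14.6% in contralateral libraries. Both shares thus differed by region without overlap. Entries that name no gene were left out of library sizes and tests. The depth limits the precision mainly of contralateral levels near 3 CPM.

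Counts were tested with edgeR 4.0.16 in R 4.3.3 (filterByExpr by region, TMM, robust glmQLFit, glmQLFTest, region as the only term), with Benjamini-Hochberg adjustment over 15554 genes. Standard errors are the log2 fold change over the square root of the quasi-likelihood F. Positions and lengths are from GENCODE M21, in which 45229 of the 46078 identifiers were found. Tables and plots were made with Python 3.11.15, pandas 2.3.3, SciPy 1.17.1 and matplotlib 3.10.9. The procedure was run on simulated counts in which few genes changed, as many up as down. In these data a far larger share of genes was called, a condition that the simulation does not cover.

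The members and gene lists were chosen with earlier results of these data known, and no test was run on a list. Named genes are the 8 members, the rest of the family, up to 4 called genes per list with the largest absolute log2 fold change and at least 10 counts on average in the higher region, genes called against a list's majority, genes lying within 100 kb, the 2 genes most like each member, and the most abundant and absent genes of each marker list, though not every gene the rule covers is named. Other genes, among them *Mylpf*, *Vim*, *Gfap*, *Aqp4*, *Chsy1*, *Csgalnact2* and the upregulated bone and cartilage genes, were named from their lists after their values were seen. The symbol *Wisp1* is an older name of *Ccn4* and was counted once. Alternatives were DESeq2 1.42.0, limma voom 3.58.1, RLE, upper quartile and library total scaling, no filter or at least 10 counts in every library, adjusted *p* alone, glmTreat, thinned counts, the replicate number as a block, each library left out and another gene length. Peri-infarct tissue and treated mice were not analysed here.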

Additional observations from a re-analysis of the deposited data

How the results depend on the processing

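All 8 proteoglycan genes were called upregulated under each of the 17 alternatives, and their log2 fold changes kept their direction and call in 136 of 136 values. They ranged from 7.12 to 7.48 for *Lum*, 6.29 to 6.66 for *Dcn*, 4.73 to 5.07 for *Bgn*, 2.42 to 2.74 for *Prelp*, 2.27 to 2.68 for *Fmod*, 2.31 to 3.01 for *Ogn*, 2.17 to 2.91 for *Omd* and 1.66 to 2.02 for *Aspn*. The setting of adjusted *p* alone kept the main fit and dropped the fold threshold, so no called gene could lose its call there. Scaling by library totals moved the median of all genes by 0.20 on the log2 scale, and fold changes are relative to TMM. The summed level per kb in infarcts over contralateral cortices, 20.5, lay between 18.7 and 22.1 with a library left out, and was 23.6 with library totals and 22.9 with the longest transcript as length. The longest transcript as length for each gene's share was chosen after seeing the data. Calls over all genes ran from 2789 to 5324 up and from 2329 to 4787 down.

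The numbers were not used as pairs, since the labels do not say that a number marks a mouse. Deviations from the region mean had r = -0.19, 0.10 and 0.00 across genes between same-numbered libraries. Between differently numbered libraries r ran from -0.24 to 0.18, so these values cannot tell whether a number marks a mouse. With the replicate number as a block, 8 of 8 members were upregulated, as were 3945 genes in all, and 3222 were downregulated.

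Of 655 values for 39 other named genes, 650 kept their direction and call. These 39 are the tested genes in the rest of the family and the called genes that the naming rule took from the gene lists. Other genes named here, such as cell type markers and neighbours outside the family, were not in this count. *Nyx*, which was not called, changed sign with library totals (log2 fold change 0.048) and without infarct 3 (0.22), with -0.41 as its lowest value with a library left out, and the cause was not tested. *Csgalnact1* lost its call in 3 settings, at -0.90 with library totals, -0.93 without infarct 1 and -1.11 with glmTreat. Few contralateral counts limit the fold changes of *Chad*, *Podnl1*, *Mmp3* and *Mmp13*.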

Other observations

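*Slc6a13* and *Slc22a6*, transporters of leptomeningeal cells that were picked out after their values were seen, ranked the infarcts as *Ogn*, *Omd* and *Bgn* did. How many of all tested genes share this order was not counted. *Slc6a13* was at 33.5, 11.5 and 21.4 CPM in infarcts 1, 2 and 3, and *Slc22a6* at 72.5, 21.8 and 42.7 CPM. Both were upregulated, with log2 fold changes of 1.50 (SE 0.36) and 1.51 (SE 0.42), smaller than those of *Ogn* and *Omd*. Other markers of the same list did not rank them so, and *Slc47a1*, *Foxc1*, *Tbx18* and *Fap* were highest in infarct 2. Whether these genes vary together beyond these 3 infarcts was not tested.

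The tested genes outside the 8 whose log2 CPM was most like that of a proteoglycan gene over the 6 libraries (Pearson r) were *Slc12a7* and *Nsmce1* for *Dcn*, *Zfp36* and *Cd300ld* for *Lum*, and *Mospd3* and *Axin1* for *Fmod*. They were *Sh3bgrl3* and *Lamtor4* for *Ogn*, *Rsad2* and *Crlf2* for *Prelp*, *Taldo1* and *Vmac* for *Omd*, and *Zfp516* and *Rnf130* for *Aspn*. The 6 libraries form 2 regions, so r mostly follows the difference between them. For *Dcn*, 1280 genes had an r over 0.99, and for *Ogn* 80 genes did.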
